A study of Mus musculus with 4 samples.

Results

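The genes described here are 5 members of the aryl hydrocarbon receptor (AHR) pathway: Ahr, which encodes the receptor, Ahrr, Tiparp, Cyp1a1 and Cyp1b1. They were picked by name from the 31053 genes of the count matrices, and their unique molecular identifiers (UMIs) were counted in every cell with at least 1 UMI of Cd3e, Cd3d or Cd3g, the CD3 chains of the T cell receptor complex. The study sorted CD4 T cells from mice of the strain BALB/c RAG2-/- TS1 Tg with graft-versus-host disease, in which donor T cells damage the host's organs, at 4 weeks after transplantation. A RAG2-deficient mouse makes no rearranged antigen receptor of its own, and TS1 Tg is the label's name for a T cell receptor transgene, carried by every group here. Cells of 5 compartments (spleen, colon, skin, and the epithelium and lamina propria of the small intestine) were hashtagged and pooled, and each of 2 replicates gave 1 gene expression library and 1 hashtag library. The feature lists of all 4 libraries hold 0 hashtag features, which leaves cells without a compartment, and the comparisons are between cells of the same pooled library. Separate animals are not named for the replicates in the labels, so the spread between them may be technical, and there is no untreated or healthy group.

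AHR is a transcription factor that waits in the cytoplasm with the chaperone HSP90 and moves to the nucleus when it binds a ligand, such as a dioxin or an indole made from dietary plants or by gut bacteria. There it pairs with ARNT and binds DNA at the core letters GCGTG. Its classical targets include Cyp1a1 and Cyp1b1, cytochrome P450 enzymes that oxidise the ligands, and 2 sources of negative feedback, Ahrr, a repressor that competes for ARNT, and Tiparp, an ADP-ribosyltransferase that modifies the receptor. In the intestine AHR is known for its part in the maintenance of intraepithelial lymphocytes and in the production of IL-22, which is why the members are set here against Itgae (the integrin CD103 that holds T cells to epithelium), Ccr9 (a receptor for homing to the small intestine), Cd8a, Il22 and Il10.

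The stretches just before the transcription start of the target genes are shown because they hold the letters that the receptor pair recognises. They come from RefSeq on GRCm38.p6, run 5′ to 3′ on the strand of the gene, and carry each GCGTG, or its reverse complement CACGC, in capitals.
Ahrr: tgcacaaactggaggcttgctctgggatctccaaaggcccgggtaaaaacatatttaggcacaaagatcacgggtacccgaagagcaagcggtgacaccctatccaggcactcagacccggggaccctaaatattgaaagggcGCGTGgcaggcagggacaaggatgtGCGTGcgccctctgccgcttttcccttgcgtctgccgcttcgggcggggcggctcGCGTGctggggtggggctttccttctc
Tiparp: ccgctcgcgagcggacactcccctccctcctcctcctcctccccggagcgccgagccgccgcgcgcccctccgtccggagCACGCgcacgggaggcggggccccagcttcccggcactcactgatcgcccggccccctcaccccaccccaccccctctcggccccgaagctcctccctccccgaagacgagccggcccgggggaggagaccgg
Cyp1a1: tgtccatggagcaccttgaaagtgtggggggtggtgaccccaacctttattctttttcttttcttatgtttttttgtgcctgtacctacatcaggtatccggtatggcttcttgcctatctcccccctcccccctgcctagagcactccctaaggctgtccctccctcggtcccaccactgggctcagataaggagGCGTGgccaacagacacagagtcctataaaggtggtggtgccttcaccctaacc
Cyp1b1: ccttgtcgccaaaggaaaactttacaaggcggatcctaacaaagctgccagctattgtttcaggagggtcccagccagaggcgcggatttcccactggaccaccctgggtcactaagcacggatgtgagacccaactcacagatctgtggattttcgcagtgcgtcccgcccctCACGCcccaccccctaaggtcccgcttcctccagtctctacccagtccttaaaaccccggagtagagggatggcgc
The Ahrr stretch (chr13:74292332-74292581, minus strand) held 3 matches, the nearest 22 bases from the start. Cyp1a1 (chr9:57697363-57697612, plus strand) held 1 match at 49 bases and Cyp1b1 (chr17:79715062-79715311, minus strand) 1 at 71 bases. The Tiparp stretch (chr3:65528197-65528409, plus strand) held 1 match, 165 bases before the start that RefSeq gives, and is printed up to the first base of the gene model. Of 32851 stretches of 250 bases before a RefSeq start, 28.2% held at least 1 match on either strand and 2.77% held at least 3. The entries matched 4 of the 5 members. A match is a run of letters and not a measured binding site. In mm10, Ahr lies at chr12:35497974-35535038 (minus strand), Ahrr at chr13:74211118-74292331 (minus), Tiparp at chr3:65528410-65555518 (plus), Cyp1a1 at chr9:57687928-57703824 (plus) and Cyp1b1 at chr17:79701537-79715061 (minus). Ahr overlaps Gm48236 and Tiparp overlaps 4931440P22Rik, each on the other strand, and whether reads were counted by strand is not given in the sources used here.

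The libraries held 89427990 and 108082997 UMIs, and 18972 cells of replicate 1 and 15857 of replicate 2 were kept with a CD3 UMI, at a median of 2689 and 3702 UMIs per cell. Cd4 was detected in 42.5% and 54.2% of these cells and Cd8a in 41.8% and 39.8%. Clusters of neutrophil-like, erythroid-like, epithelial-like, fibroblast-like, myeloid-like and basophil or mast cell-like cells were present among the kept cells. The libraries shared 599 barcodes, 3.15% and 3.77% of their cells, where 44.5 would be shared by independent draws, and the median UMI count of a shared barcode was 1319 in the library with fewer and 20198 in the library with more. Results are given with these barcodes in, and values without them are given for the members and for the counts of called genes.

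Ahr and Tiparp were low but measurable in both libraries, Ahrr was rarer, and the P450 genes were close to absent. Ahr had 2139 UMIs in replicate 1 and 2490 in replicate 2, or 29.98 and 31.4 UMIs per 1000000 UMIs (CPM; mean 30.7 ± 1.02, SD, n = 2). It was detected in 9.02% and 11.9% of cells. Most cells with any Ahr held a single UMI (81.8% and 76.9% of them), and no cell held more than 8. To remove the difference in depth, each cell was thinned at random to 1500 UMIs, which left 15260 and 14839 cells, and Ahr was then detected in 4.61% (95% Clopper-Pearson interval 4.29 to 4.96%) and 4.45% (4.12 to 4.79%) of them. These intervals overlap, and like every interval here they cover counting error only. Tiparp behaved alike, with 2405 and 2757 UMIs (33.7 and 34.8 CPM), and was detected in 4.82% and 4.85% of thinned cells (10.2% and 13.7% before thinning). Ahrr had 396 and 433 UMIs (5.55 and 5.46 CPM) and was detected in 0.708% (0.581 to 0.854%) and 0.829% (0.689 to 0.988%) of thinned cells, against 1.97% and 2.59% before thinning. Levels of different genes are set side by side as UMI counts only and were not tested against each other.

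Cyp1a1 gave 1 UMI in replicate 1, in a cell of a cluster led by Il13, Csf2 and Ccl1, and 0 in replicate 2, where a count of 0 allows a share of cells with a UMI of up to 0.0189%. Every such limit for a count of 0 is 3 divided by the number of cells. It is lower than the upper Clopper-Pearson bound, which was 0.0233% here. Cyp1b1 gave 0 UMIs in replicate 1, which allows up to 0.0158%, and 3 in replicate 2, all in a single fibroblast-like cell. Neither gene could be tested. Of 11 genes listed as the AHR gene battery, 4 (Cyp1a1, Cyp1a2, Cyp1b1 and Ugt1a6b) had 0 UMIs in the thinned sums, and Nqo1, which encodes a quinone reductase, reached 1.11 and 1.09 CPM. Arnt, the partner of the receptor, was at 15.03 and 15.4 CPM.

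RNA that floats free of cells also carried these transcripts. In barcodes with fewer than 100 UMIs, Ahr was at 21.1 and 32.9 CPM, Ahrr at 8.98 and 5.42 CPM and Tiparp at 21.1 and 23.6 CPM, in the range of the cells themselves. Cells of other types in the same libraries were counted at 1500 UMIs per cell as well. Ahr was found in 1 of 163 neutrophil-like cells (0.613%), in 1 of 81 erythroid-like cells (1.23%) and in 0 of 101 epithelial-like cells, which allows up to 2.97%. Other types reached the share of all cells, with 7 of 142 myeloid-like cells (4.93%), 4 of 51 cells of a basophil or mast cell-like cluster (7.84%) and 1 of 20 fibroblast-like cells (5%). Of those 51 cells, 50 came from replicate 1. A second basophil or mast cell-like cluster held 1 Ahr UMI in replicate 1 and 0 in replicate 2 before thinning. Whether the cells of these types hold free RNA or Ahr of their own cannot be told apart. Ahrr was found in 1 of the 163 neutrophil-like cells and in 0 of the 81 erythroid-like cells, which allows up to 3.70%, so the overall Ahrr share does not stand clear of that background. The Ahrr results below rest on its unequal distribution between classes of cells within a library. Tiparp was found in 13 of the neutrophil-like cells (7.98%), so its overall share does not stand clear of that background either. The dividing gene Cd8a was found in 36 of the neutrophil-like cells (22.1%), 21 of the erythroid-like cells (25.9%) and 26 of the epithelial-like cells (25.7%), and was at 423 and 434 CPM in the barcodes with fewer than 100 UMIs against 536 and 487 CPM in cells. Itgae was found in 24 (14.7%), 9 (11.1%) and 11 (10.9%) of the same cells. Detection of a dividing gene is therefore not by itself expression by that cell. Among T cells the Cd8a share still ran from 5.53% in the lowest cluster to 82.4% in the highest of those described below.

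**Figure D1:**
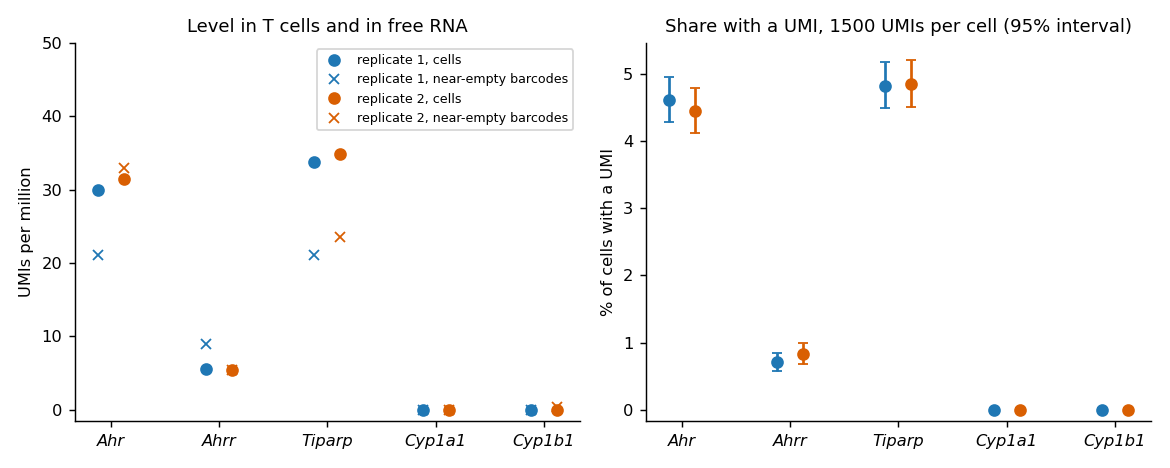
Left, CPM of each member in cells with a CD3 UMI (circles) and in barcodes with fewer than 100 UMIs (crosses), by replicate. Right, the percentage of cells with a UMI after thinning to 1500 UMIs, with 95% Clopper-Pearson bars; Ahr and Tiparp lie between 4.45% and 4.85%, Ahrr below 1%, and Cyp1a1 and Cyp1b1 at 0.

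To ask where the members were transcribed, cells with a UMI of a partner gene were summed within each library and compared with the cells without it. The 4 sums of each comparison (2 classes in 2 libraries) were fitted over all genes by edgeR's quasi-likelihood test with the library as a block, which leaves 1 residual degree of freedom, and p-values were adjusted over all genes tested by the Benjamini-Hochberg method. A gene with an adjusted p under 0.05 is called changed. The test moderates the spread of each gene with that of all genes, so a small p-value does not rest on the 2 libraries alone. The weight of that step differs between comparisons, so p-values and counts of called genes are not on 1 footing from comparison to comparison. A cell without a UMI may still hold the transcript, so the classes are detected and undetected cells and not positive and negative cells.

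Ahr, Ahrr and Tiparp were each higher in cells with Itgae. Itgae was detected in 24.9% and 26.1% of thinned cells. Ahr stood at 48.9 CPM in Itgae-detected and 28.2 CPM in undetected cells of replicate 1, and at 48.5 and 28.3 CPM in replicate 2. The classes did not overlap, and the log2 difference was 0.80 ± 0.082 (SE, adjusted p = 2.31e-09). Ahrr stood at 10.3 against 3.03 CPM in replicate 1 and at 11.4 against 3.53 CPM in replicate 2, a log2 difference of 1.74 ± 0.19 (adjusted p = 7.45e-09). Tiparp stood at 37.7 against 33.1 CPM and at 40.7 against 33.2 CPM, a log2 difference of 0.26 ± 0.085 (adjusted p = 0.0219). Across all 11291 genes tested, 28.1% were called in either direction and 13% were higher, so a call by itself sets a gene little apart here. Tiparp's call was lost with DESeq2 (adjusted p = 0.765).

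Cells with Ccr9 held more Ahrr and, with less certainty, more Ahr. Ccr9 was detected in 12.8% and 13.6% of cells. Ahrr was at 9.91 CPM in Ccr9-detected and 4.11 CPM in undetected cells of replicate 1 and at 12.9 and 4.42 CPM in replicate 2 (log2 difference 1.43 ± 0.22, adjusted p = 1.82e-05). Ahr was at 48.2 against 31.2 CPM and at 37.4 against 33.0 CPM (0.43 ± 0.11, adjusted p = 0.00632), and the log2 difference was 0.62 within replicate 1 but 0.18 within replicate 2. That call was lost with DESeq2 (adjusted p = 0.393). Tiparp, at 35.9 against 34.0 CPM and 38.4 against 34.6 CPM, was not called (0.13, adjusted p = 0.466). The share of all genes called in this comparison was 18.8%, and 7.98% were higher. Neutrophil and erythroid markers were lower with Ccr9, 9 of 10 and 6 of 8 genes. The neutrophil list summed to 205 against 1826 CPM in replicate 1 and 620 against 2976 CPM in replicate 2. Without the clusters of other cell types Ahrr differed by 1.43 and Ahr by 0.40.

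The widest separation of Ahrr was by Cd8a, the alpha chain of CD8, which intestinal CD4 T cells can acquire as they settle in the epithelium. Cd8a was detected in 33.1% and 29.5% of thinned cells. Ahrr was at 9.79 CPM in Cd8a-detected and 2.42 CPM in undetected cells of replicate 1 and at 13.6 and 2.23 CPM in replicate 2, a log2 difference of 2.34 ± 0.21 (adjusted p = 3.99e-26). Of the cells in which Ahrr was detected, 65.7% and 72.4% also had a Cd8a UMI (71 and 89 cells), which is 1.99 and 2.45 times the number expected from the product of the separate shares. Cells of other types also had Cd8a UMIs, at the shares given above, so these are not shares of Cd8a-expressing cells. Ahr was at 43.3 against 28.5 CPM and at 45.5 against 28.6 CPM (0.66 ± 0.082, adjusted p = 2.24e-14). Tiparp was not called (0.11, adjusted p = 0.309). Of all genes, 39.2% were called by Cd8a, 18.2% higher and 20.9% lower. All 13 immediate early genes and all 7 heat shock genes tested were among the lower. The median mitochondrial share was 2.27% and 2.13% in Cd8a-detected cells against 2.91% and 2.66% in the others, and with a mitochondrial limit of 5% Ahrr differed by 2.24 and Ahr by 0.83.

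Sorting cells on Itgae and Cd8a together gave a graded series for Ahrr. With both detected, Ahrr was at 12.3 and 14.8 CPM in the 2 libraries. With Itgae alone it was at 7.41 and 6.38 CPM and with Cd8a alone at 7.70 and 12.2 CPM, so the single-marker classes were close in replicate 1 and apart in replicate 2. With neither it was at 1.54 and 1.499 CPM. Ahr followed the same order at its ends, with 51.0 and 51.3 CPM where both were detected and 25.4 and 25.9 CPM where neither was, but its steps were smaller. In between, Ahr was at 45.8 and 44.2 CPM with Itgae alone and at 36.8 and 38.9 CPM with Cd8a alone. These values are a description and were not tested.

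Cells with Il10, the anti-inflammatory cytokine, held less Ahr. Il10 was detected in 4.04% and 4.86% of cells. Ahr was at 14.1 CPM (13 UMIs) in Il10-detected and 34.2 CPM in undetected cells of replicate 1, and at 10.2 CPM (11 UMIs) and 34.8 CPM in replicate 2. The log2 difference was -1.46 ± 0.26 (adjusted p = 1.09e-06), in a comparison where 7.43% of genes were called, 4.27% higher and 3.16% lower. Thinning to 1000 UMIs moved it to -0.65 (adjusted p = 0.304). Ahrr had 2 UMIs in the Il10-detected cells of each library and was not called (-1.36 ± 0.65, adjusted p = 0.247). Tiparp was not called either (0.24, adjusted p = 0.572).

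Il22 was rare, and no member could be told apart by it. Il22 was detected in 63 and 52 thinned cells (0.413% and 0.350%). Ahr was at 21.2 CPM (2 UMIs) in Il22-detected and 33.4 CPM in undetected cells of replicate 1, but at 115.7 CPM (9 UMIs) and 33.3 CPM in replicate 2, so the libraries went opposite ways (log2 difference -0.82 and 1.61, and 0.76 ± 0.53 in the fit, adjusted p = 0.876). Ahrr had 0 UMIs in these cells, which allows a share of up to 4.76% of the 63 and 5.77% of the 52, and no fold is given. Tiparp had 6 and 7 UMIs, 63.7 and 89.95 CPM against 34.1 and 34.9 CPM (0.95 ± 0.49, adjusted p = 0.626). Of all genes, 1.23% were called by Il22. The median mitochondrial share was 3.71% and 3.98% in Il22-detected cells against 2.68% and 2.48% in the others. With a mitochondrial limit of 5%, Ahr and Tiparp were not called by Il22 either.

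A further comparison by Il13, the type 2 cytokine, was added after the levels by cluster had been seen, because Il13 leads 2 of the clusters described below. Ahr was at 51.8 CPM in Il13-detected and 32.5 CPM in undetected cells of replicate 1 and at 58.4 and 32.6 CPM in replicate 2 (0.77 ± 0.15, adjusted p = 0.00372). Ahrr had 2 and 3 UMIs in these cells and was not called (-0.93 ± 0.61, adjusted p = 0.459), nor was Tiparp (0.29, adjusted p = 0.378). Of all genes, 7.59% were called by Il13 and 4.9% were higher. Ahr's call was lost with DESeq2 (adjusted p = 0.126) and with a second random thinning (0.44, adjusted p = 0.135). The median mitochondrial share was also higher in Il13-detected cells (3.36% and 3.55%) than in the others (2.66% and 2.45%), and with a mitochondrial limit of 5% in place of 10% the difference of Ahr was 0.52 and was not called (adjusted p = 0.163).

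**Figure D2:**
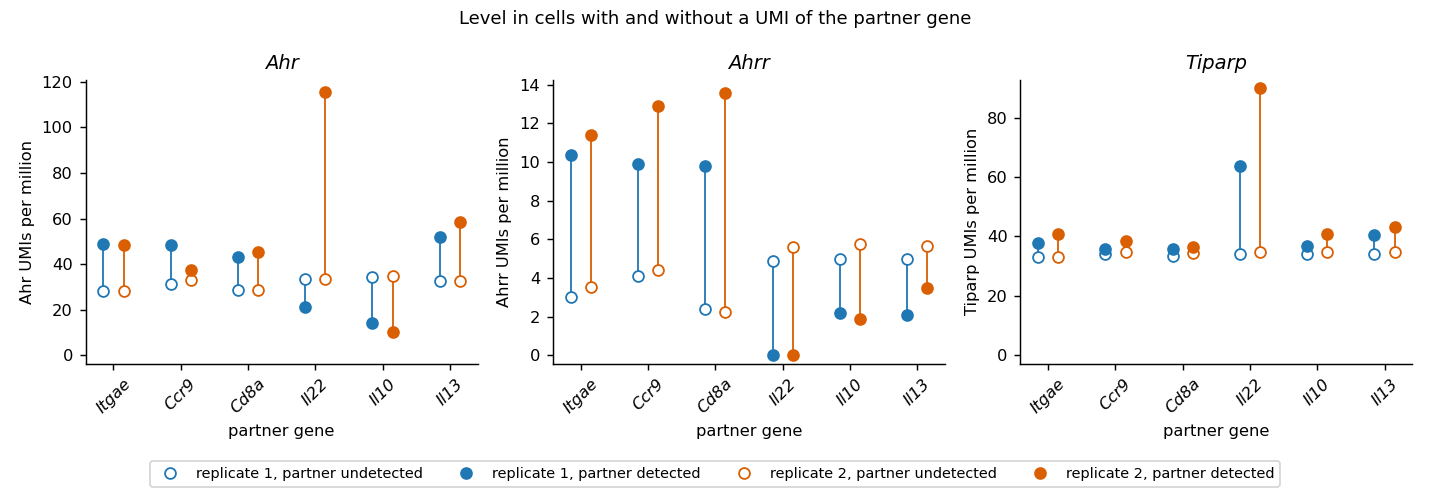
CPM of Ahr, Ahrr and Tiparp (vertical axes, each with its own scale) in thinned cells with (filled) and without (open) a UMI of the partner gene on the horizontal axis, by replicate. Ahrr in Cd8a-detected cells (9.79 and 13.6) stands well above undetected cells (2.42 and 2.23), while the Il22 points rest on 0 to 9 UMIs.

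The calls of Ahr and Ahrr by Itgae, Ccr9 and Cd8a and of Ahr by Il10 and Il13 were kept without the shared barcodes. Without them the log2 difference of Ahr was 0.78 by Itgae, 0.47 by Ccr9, 0.65 by Cd8a, -1.43 by Il10 and 0.77 by Il13, that of Ahrr was 1.75, 1.48 and 2.32 by Itgae, Ccr9 and Cd8a, and that of Tiparp by Itgae was 0.24. By Il22 they were 0.76 for Ahr and 0.95 for Tiparp, not called. Neutrophil markers moved with the classes. The 10 of them summed to 943 CPM in Itgae-detected and 1843 CPM in undetected cells of replicate 1 and to 768 and 3322 CPM in replicate 2, and to 935 against 1957 CPM and 931 against 3377 CPM by Cd8a, and all 10 were called lower in both comparisons. Without the clusters of other cell types Ahr differed by 0.78 by Itgae and 0.63 by Cd8a, and Ahrr by 1.74 and 2.33.

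By Itgae, few other genes of the pathway were called in the direction of the members, and few of the AHR gene battery could be tested. Over all genes tested, 13% were called higher and 15.1% lower by Itgae. The share called higher was 18.2% by Cd8a and 4.9% by Il13, and 1.23% were called in either direction by Il22. Of 7 genes of the receptor complex, Ahr alone was called higher in Itgae-detected cells, and 3 were lower: Hsp90ab1 and Hsp90aa1, which encode the chaperone, and Ptges3, which encodes its cochaperone p23. The 1 of 7 called higher is near the share over all genes. Of the gene battery only 3 of 11 genes passed the filter on low counts, so hardly any besides the members could be judged. The members Ahrr and Tiparp were the 2 of these called higher by Itgae. By Cd8a the 2 called higher were Ahrr and Nfe2l2, which encodes the stress regulator NRF2. Of 8 tested lymphocyte genes linked to AHR, 1 was higher by Itgae (Kit, a growth factor receptor) and 5 were lower: Il17a, Il21, Il10, Maf and Il22. Their median log2 difference was -1.11, against -0.00 for all genes tested. By Il22, 0 genes of these 3 lists were called. By Il13, 3 of 4 tested genes of ligand metabolism were called higher, namely Il4i1, an oxidase that makes indole products from tryptophan, and Slc7a5 and Slc3a2, the chains of an amino acid transporter.

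Clusters of similar cells, made with the members and their partner genes left out of the clustering genes, show how the members were spread over 13 T cell clusters. Clusters 3 (progenitor and egress-like), 5 (heat shock-like), 8 and 9 (proliferation-like) and 12 (interferon response-like) carry names from markers, and the others are given by their leading genes. Cluster levels are a description without a test. Ahr was highest in cluster 14, led by Tcrg-C1 and Tmem176b (74.9 CPM in replicate 1 and 65.4 CPM in replicate 2). A finer clustering into 20 T cell clusters had no such peak, and its highest were a cluster led by Nr4a2 and Ctla4 (62.4 and 58.3 CPM) and a cluster led by Egr3 and Egr2 (61.3 and 54.8 CPM). In the 13 clusters it was next in cluster 7, led by Xcl1 and Nr4a2 (61.0 and 58.8 CPM), and in cluster 11, led by Il13 and Lmna (51.5 and 60.8 CPM), and the last 2 of these overlapped. Cluster 5 (50.5 and 48.7 CPM), cluster 10, led by Cd8a, Cela1, Cd244 and Itgae (45.2 and 43.4 CPM), and cluster 13, led by Il13, Csf2 and Ccl1 (39.1 and 37.4 CPM), came after without overlap. Clusters 12 (25.6 and 32.8 CPM), 6 (26.8 in each) and 9 (25.9 and 24.7 CPM) lay together in the middle. Ahr was lowest in cluster 8 (11.3 and 13.4 CPM) and cluster 3 (12.4 and 9.94 CPM), which overlapped, in cluster 4, led by Il10 (8.86 and 8.52 CPM), and in cluster 2, led by Eomes (5.21 and 3.40 CPM).

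Ahrr had another order. It was highest in cluster 10 (17.9 and 15.4 CPM), which held 53.7% and 54.5% of the Ahrr-detected cells but 15.03% and 17.5% of all thinned cells. In the finer clustering the cluster led by Cd8a (17.6 and 16.1 CPM) overlapped with one led by Ifit1 and Isg15 (21.1 and 12.6 CPM), while another interferon cluster, led by Ifit3, held 0 Ahrr UMIs. At the coarser level, clusters 11 (9.20 and 12.6 CPM), 12 (11.3 and 7.56 CPM), 9 (8.71 and 9.10 CPM), 7 (7.57 and 7.48 CPM) and 14 (7.89 and 4.97 CPM) followed, and neighbours in this order overlapped except clusters 9 and 7. Cluster 6, of which most cells came from replicate 1, was at 4.25 and 2.43 CPM. The other 6 clusters lay between 0.237 and 1.18 CPM, among them clusters 5 and 13, where Ahr was well detected. Tiparp was more even. It was highest in clusters 13 (56.8 and 55.8 CPM), 14 (58.4 and 47.4 CPM) and 11 (51.5 and 51.2 CPM) and lowest in clusters 2 (19.2 and 20.4 CPM) and 3 (22.7 and 12.6 CPM).

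**Figure D3:**
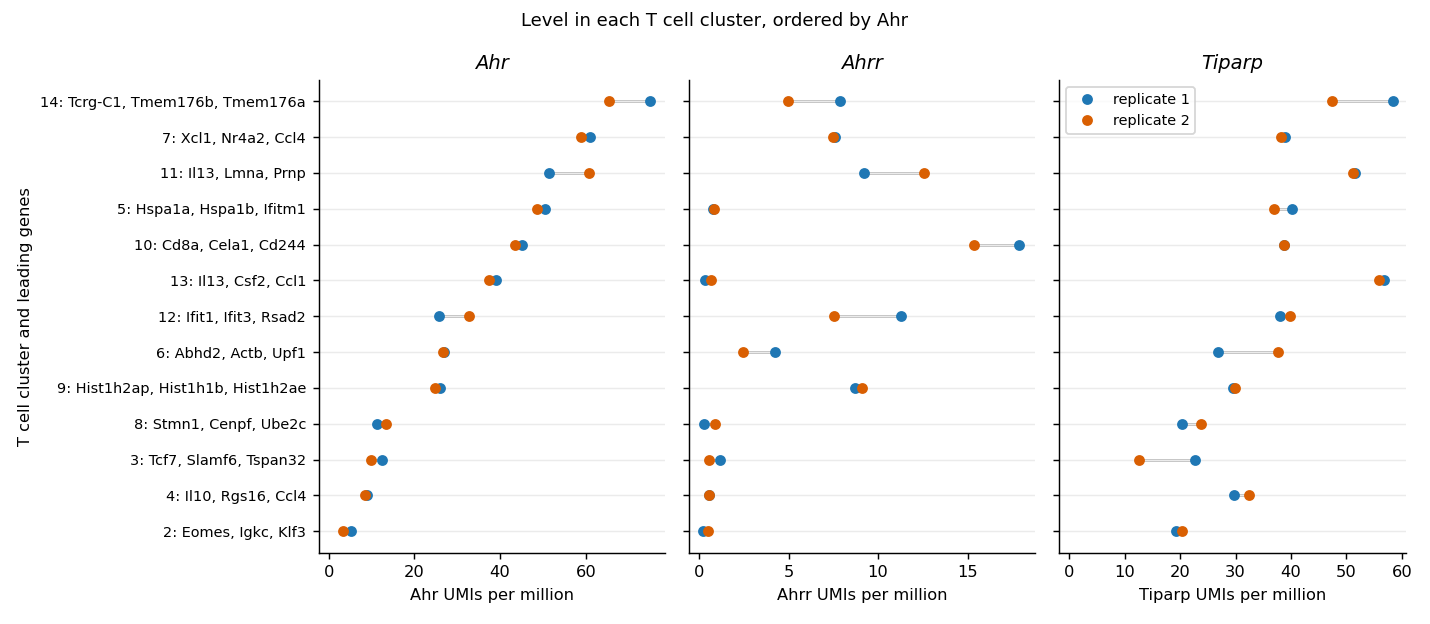
CPM of Ahr, Ahrr and Tiparp (horizontal axes) in each of 13 T cell clusters, with a point for each replicate and clusters ordered by Ahr. Cluster 14 is highest in Ahr (74.9 and 65.4), cluster 10 in Ahrr (17.9 and 15.4), and clusters 5 and 13 have Ahr above 37 but Ahrr below 1.

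The ratio of Ahrr UMIs to Ahr UMIs therefore ranged widely between clusters. Cluster 10 had 39.6 and 35.4 Ahrr UMIs per 100 Ahr UMIs, and cluster 9 had 33.6 and 36.8. Cluster 12 was at 44.0 and 23.1, with a wide gap between its replicates. The ratio was 17.9 and 20.6 in cluster 11 and 12.4 and 12.7 in cluster 7, and it fell to 1.56 and 1.68 in cluster 5 and to 0.898 and 1.73 in cluster 13. Clusters 11 and 13 are both led by Il13, yet their ratios did not overlap.

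**Figure D4:**
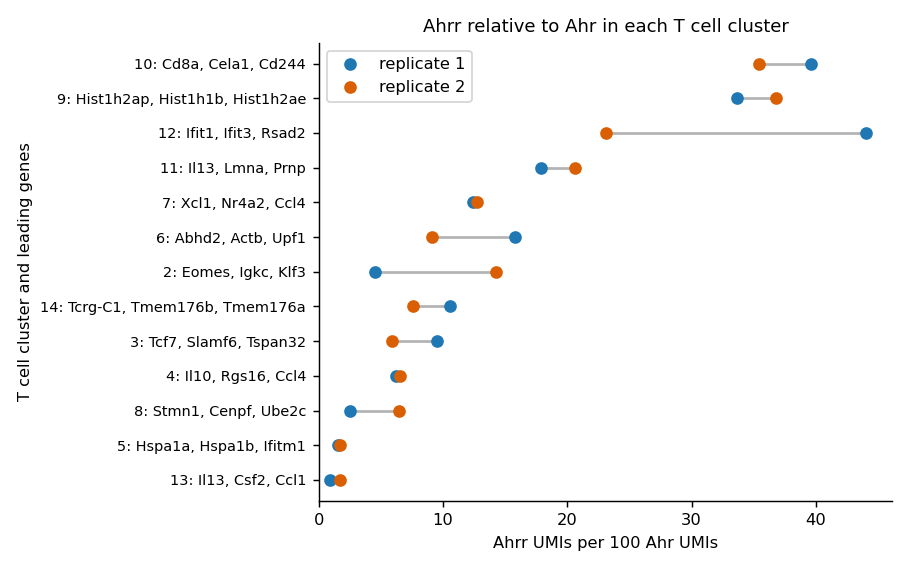
Ahrr UMIs per 100 Ahr UMIs (horizontal axis) in each T cell cluster, with a point for each replicate. The ratio is 39.6 and 35.4 in cluster 10, led by Cd8a, and 0.898 and 1.73 in cluster 13, led by Il13.

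Within single clusters the differences by partner gene varied from cluster to cluster. In cluster 10, Ahrr was at 17.7 CPM in Cd8a-detected and 17.9 CPM in undetected thinned cells of replicate 1, and at 17.1 and 19.2 CPM in replicate 2. Ahr by Itgae in the same cluster was at 51.2 against 45.6 CPM and at 44.8 against 45.4 CPM. In cluster 7 Ahrr was higher with Cd8a in both libraries, at 12.6 against 6.67 CPM and 11.1 against 4.51 CPM, and with Ccr9, at 17.9 against 7.62 CPM and 13.1 against 5.79 CPM. In cluster 12 the gaps with Cd8a were wide: Ahr was at 35.1 against 11.5 CPM and 40.3 against 13.6 CPM (6 against 2 and 13 against 4 UMIs). Ahrr had 3 UMIs against 0 in replicate 1 and 5 against 0 in replicate 2 there. Over the clusters with at least 50 cells in each class, Ahr was higher with Itgae in both libraries in 4 of 7 and lower in both in 0. With Cd8a, Ahr was higher in both in 3 of 8 and lower in both in 0. Ahrr was higher with Cd8a in both in 2 of 8 and lower in both in 1. Clusters 2 and 5 were among these 8 and held 0 Ahrr UMIs, and cluster 4 held 0 in replicate 1, so they could count neither way. Ahrr was higher in both in 3 of 7 with Itgae and in 1 of 5 with Ccr9, and lower in both in 0. The 3 with Itgae rest on few UMIs: 4 against 4 and 8 against 8 in cluster 9, 2 against 1 and 1 against 0 in cluster 11. In cluster 12 they were 1 against 2 and 4 against 1. Cluster 5 with Itgae and clusters 2 and 4 with Ccr9 could count neither way. Tiparp was higher with Itgae in both libraries in 2 of 7 clusters and lower in both in 3, unlike the rise over all cells. These values were added after the comparisons had been seen and were not tested.

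The genes whose levels over the 13 clusters were most like each member were found by Pearson's r of log2(CPM + 10), over 3845 genes compared with Ahr and Tiparp and 3846 with Ahrr. The clusters share libraries, so r is a description. For Ahr these were Neurl3 (0.92), Rgs10 (0.92), Cd226 (0.90), Timp2 (0.89) and Stk24 (0.87), while Tiparp reached 0.84 and Ahrr 0.59. For Ahrr they were Mbd2 (0.97), Srebf2 (0.96), Hic1 (0.96), Exoc3 (0.96) and Cd200r1 (0.95), with Ccr9 at 0.88, Cd8a at 0.87 and Itgae at 0.80. For Tiparp they were Neurl3 (0.93), Rnf19b (0.92), Cish (0.90), Timp2 (0.90) and Gpr171 (0.86). Hic1, a transcriptional repressor found in intestinal lymphocytes, was at 169 and 151 CPM in cluster 10 and at 13.0 and 7.78 CPM in cluster 5.

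The last set of comparisons took the members themselves as the dividing gene. Ahr was detected in 704 and 660 thinned cells, and 203 of 11549 genes were called (1.76%), 95 higher (0.823%) and 108 lower (0.935%). With DESeq2 83 genes were called without the replicate block 19, and without the shared barcodes 263. Ahr-detected cells had more of the genes of tissue-resident T cells. Of 11 tested residency genes 8 were called higher and 0 lower, with a median log2 difference of 0.27 against -0.01 for all genes. Itga1, the collagen-binding integrin CD49a, was at 105 against 61.0 CPM in replicate 1 and 139 against 76.9 CPM in replicate 2 (0.81 ± 0.10, adjusted p = 1.30e-04). Itgae (0.59), Cd244 (0.59), an NK-type receptor, and Ccr9 (0.48) were also higher. The rises of Itgae and Ccr9 are the comparisons by those genes read from their other side. The residency count was 5 with DESeq2, 3 after thinning to 1000 UMIs and 1 without the block.

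Cytotoxic genes rose in part. Of 10, 5 were called higher and 1 lower. Gzma, a granzyme, was at 22314 against 15338 CPM and 21409 against 14754 CPM (0.52 ± 0.03, adjusted p = 4.59e-09), and Klrd1, the NK receptor CD94, differed by 0.51. Gzmk, another granzyme, was lower, at 278 against 414 CPM and 211 against 410 CPM (-0.77). Of 8 type 1 helper genes 0 were higher and 2 lower, Eomes, a transcription factor (-1.45), and Cxcr3, a chemokine receptor (-0.58).

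Of 7 tested type 2 helper genes, Csf2, which encodes GM-CSF (0.58), and Il13 (0.55) were higher and 0 were lower. The call of Il13 was lost in 8 of 13 other settings, and without thinning its direction turned (-0.18). Of 13 immediate early genes, 7 were higher, among them the transcription factors Atf3 (0.58) and Fosb (0.42), but 0 were without the block and 0 after thinning to 1000 UMIs. Bcl2, the survival factor, was at 315 against 209 CPM and 333 against 219 CPM (0.58), and Il7r, the IL-7 receptor, differed by 0.32 but by -0.17 without thinning. Il10 was lower, at 15.2 against 45.3 CPM and 25.3 against 59.7 CPM (-1.40 ± 0.18, adjusted p = 3.07e-04), the comparison by Il10 read from its other side. Maf, a regulator of Il10, was lower by less (-0.33).

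Among the largest rises were Gpr34 (96.7 against 54.5 CPM and 96.0 against 51.3 CPM, 0.85), the lipid receptor Gpr55 (0.80), lymphotoxin Lta (0.79), Tmem176b (0.76), Klf4 (0.71), Gadd45g (0.67) and Hic1 (0.65). Lta was at -0.01 without thinning and Klf4 at -0.18 after thinning to 1000 UMIs. The size of some rises rested on replicate 2, since within replicate 1 alone Gpr55 differed by 0.49, Gadd45g by 0.37, Csf2 by 0.30 and Il13 by 0.19. Ccr9 went the other way, with 0.60 in replicate 1 and 0.29 in replicate 2. Tcrg-C1, a gamma chain gene of the T cell receptor, was at 36.0 against 15.1 CPM and 40.4 against 17.0 CPM (1.23).

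Neither Ahrr nor Tiparp was called by Ahr detection at this depth. Ahrr was at 10.4 against 4.58 CPM and 8.09 against 5.45 CPM and was not called (0.87 ± 0.38, adjusted p = 0.392), with 11 and 8 cells holding both genes where 4.98 and 5.47 were expected. Tiparp was at 43.6 against 33.8 CPM and 43.5 against 34.7 CPM (0.33 ± 0.16, adjusted p = 0.459). Without thinning both were called, at 0.83 (adjusted p = 0.00592) for Ahrr and 0.30 (adjusted p = 0.00524) for Tiparp. Cells then differ in depth, and 2048 genes were called by Ahr against 203 with thinning. Of the 6 other genes of the receptor complex only Hsp90ab1 was called, and it was lower (-0.21). Of the 3 tested battery genes 0 were called. The largest falls were neutrophil genes: 7 of 10 were lower, and the list summed to 194 against 1687 CPM and 451 against 2758 CPM. S100a8 moved from -2.84 to -0.01 (adjusted p = 0.988) and the list from 7 genes lower to 0 when the clusters of other cell types were left out, while Itga1 was then 0.79 and 7 residency genes were higher.

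Ahrr was detected in 108 and 123 cells, and 339 of 11105 genes were called (3.05%), 64 higher (0.576%) and 275 lower (2.48%). The count was 125 with DESeq2 and 136 without the block. Without the shared barcodes it was 350, and with a second random thinning 128. Residency genes were split. Of 11 residency genes 5 were higher and 2 lower, with a median log2 difference of 0.33 against -0.14 for all genes. Cd8a was at 1180 against 487 CPM and 1161 against 443 CPM (1.24 ± 0.10, adjusted p = 1.84e-30), and Itgae at 550 against 240 CPM and 559 against 263 CPM (1.05 ± 0.14, adjusted p = 3.90e-12). Cd244 (1.27), Itga1 (1.17) and Ccr9 (1.08) were higher too, while Bhlhe40, a transcription factor of the same list, was lower (-1.36). The rises of Cd8a, Itgae and Ccr9 are the comparisons by those genes read from their other side. Of 10 cytotoxic genes 3 were higher, Gzma (37408 against 15504 CPM and 37266 against 14864 CPM, 1.21), Gzmb (1.08) and Klrd1 (0.62), and 1 was lower, Klrc1, with a list median of -0.01.

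Cytokine and activation genes went the other way in Ahrr-detected cells. Of 7 type 2 helper genes 5 were lower and 0 higher. Il13, Csf2, Ccl1 and Il1r2 also lead cluster 13, where Ahrr was among its lowest, so this count is not independent of the cluster levels. Ccl1, a chemokine, was at 61.8 against 447 CPM and 54.2 against 402 CPM (-2.97), and Il13 at 12.4 against 68.0 CPM and 16.3 against 74.3 CPM (-2.40), on 2 and 3 UMIs. Csf2 was lower too (-1.38), with -2.44 in replicate 1 and -0.79 in replicate 2, as was the decoy receptor Il1r2, on 3 and 1 UMIs. Of 8 type 1 helper genes 4 were lower, including Ifng (469 against 829 CPM and 456 against 955 CPM, -1.04), and 1 was higher, the chemokine Ccl5 (0.48). Of 13 immediate early genes 8 were lower and 0 higher, among them Atf3 (-2.16), with -1.59 in replicate 1 and -3.28 in replicate 2. The heat shock chaperones Hspa1a (-2.57) and Hspa1b (-2.96) were lower, as was Il7r (49.4 against 168 CPM and 16.3 against 156 CPM, -2.44). Il10 (1 and 2 UMIs) and Maf (-1.29, with -0.65 in replicate 1 and -2.13 in replicate 2) were lower.

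The largest rises with Ahrr were 2900026A02Rik (80.3 against 20.0 CPM and 97.6 against 18.7 CPM, 2.12), Tex9 (1.69), Scin, an actin-severing protein (1.58), Gcnt2 (1.44), the growth factor Areg (1.43, with 0.84 in replicate 1, and 0.60 and not called without the shared barcodes, adjusted p = 0.809), Osgin1 (1.37), Errfi1, an inhibitor of EGF receptor signalling (1.34), and Asb2 (476 against 160 CPM and 428 against 176 CPM, 1.33). Of the genes most like Ahrr over clusters, Hic1 (1.24), Cd200r1 (1.15), Srebf2 (0.92) and Mbd2 (0.45) were called higher in this comparison. Exoc3 was not (-0.00, adjusted p = 0.999). These genes were picked over clusters of the same cells, so their calls are not independent of that choice. The integrin Itgb1, Cd81 and Gramd3 were among the largest falls, each on at most 2 UMIs in a library. Ahr was at 80.3 against 33.0 CPM and 43.4 against 33.5 CPM and was not called (0.77 ± 0.37, adjusted p = 0.436). It was called without thinning (0.67, adjusted p = 4.51e-09), where cells differ in depth and 2523 genes were called by Ahrr against 339. Of 10 neutrophil genes 6 were lower, with sums of 1396 against 1620 CPM and 358 against 2675 CPM, and 0 were once the clusters of other cell types were left out. The median mitochondrial share was 2.10% and 1.96% in Ahrr-detected cells against 2.69% and 2.48% in the others, and its part in these results was not tested.

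Tiparp gave the fewest called genes, and their number rested on the thinning drawn. It was detected in 736 and 719 thinned cells, and 11 of 11563 genes were called (0.0951%), 9 higher (0.0778%) and 2 lower (0.0173%); 780 had an unadjusted p under 0.05, and without the block 0 were called, and 37 without the shared barcodes. A second random thinning of the same cells gave 122 genes, and the other settings ran from 0 to 2022, the latter without thinning. Tnfsf11, the cytokine RANKL, was at 131 against 73.2 CPM and 100.2 against 57.7 CPM (0.81 ± 0.09, adjusted p = 0.0439). Fosb (0.50) and Dusp1 (0.35) were the 2 of 13 immediate early genes called, and Hspa1a (0.62) the 1 of 7 heat shock genes. Klf6 (0.37) and Nfkbia, the inhibitor of NF-kB (0.35), rose as well. Without thinning the directions of Dusp1 (-0.06) and Nfkbia (-0.01) turned. Penk, which encodes proenkephalin, was lower with Tiparp, at 176 against 284 CPM and 177 against 258 CPM (-0.62). Of the residency and cytotoxic lists 0 of 12 and 0 of 10 were called. Ahr, at 46.2 against 32.7 CPM and 38.0 against 33.3 CPM, was not called (0.35 ± 0.16, adjusted p = 0.736).

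**Figure D5:**
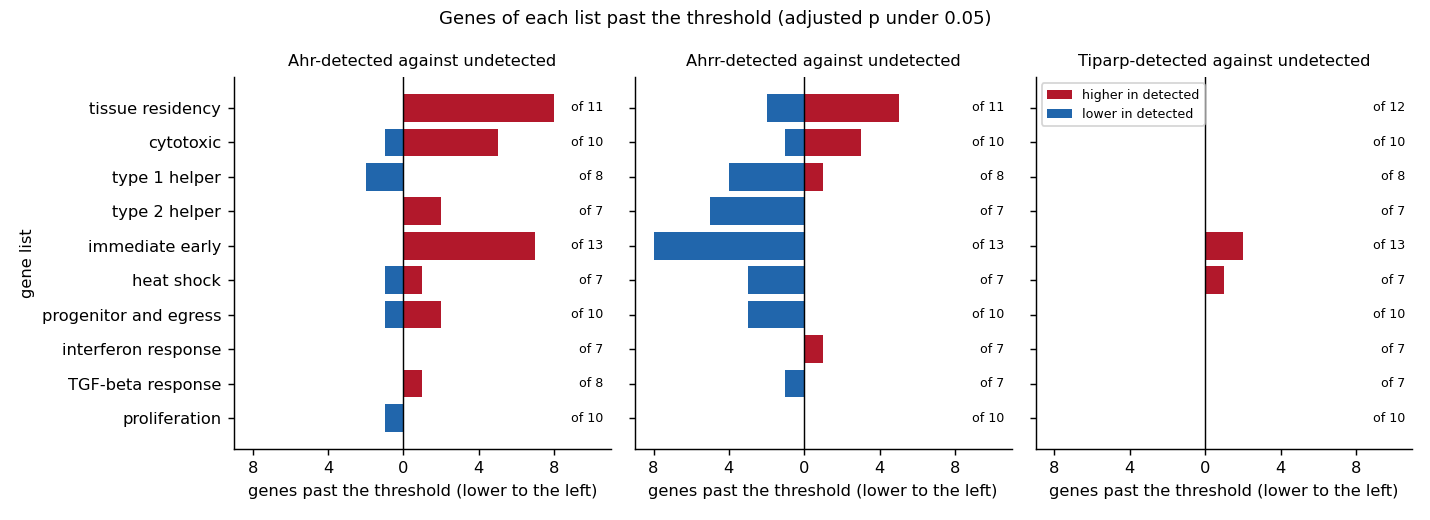
Number of genes of each list called higher (red, to the right) or lower (blue, to the left) in cells with a UMI of Ahr, Ahrr or Tiparp, at an adjusted p under 0.05, with the number tested beside each bar. Residency genes lie mostly to the right for Ahr (8 of 11) and to both sides for Ahrr (5 higher and 2 lower of 11). Immediate early genes lie to the right for Ahr (7 of 13) and to the left for Ahrr (8 of 13).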

How the data were processed

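The 5 genes and the gene lists were chosen with earlier results of these data known. Per the submitters' processing notes and the file headers, the authors made the deposited UMI counts with Cell Ranger 3.1.0 against mm10; the libraries used the 3′ v3 chemistry of 10x Genomics, per the labels' protocols. The deposited matrices list every possible barcode. Cells with at least 1000 UMIs, 500 genes, at most 10% mitochondrial UMIs and 1 UMI of Cd3e, Cd3d or Cd3g were kept; no doublet caller was run. Removed for mitochondrial share were 604 and 1764 cells. Counts were summed per library and class after thinning to 1500 UMIs and tested in edgeR 4.0.16 (quasi-likelihood, TMM, filterByExpr, library block because both classes come from 1 library). Deviations from the class means, correlated between classes of a library, gave r from 0.038 (Ahrr) to 0.52 (Cd8a). CPM is UMIs per 1000000. Leiden clusters (scanpy 1.11.5, resolution 1, 2000 variable genes, 30 components) are descriptive.

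Genes were named by a rule: the members and partners, up to 4 called genes with the largest change per list, the 8 largest rises and falls at 50 CPM or more with the same order in both libraries, and the 5 most alike genes over clusters; the text prints part of these. The 4 sums per comparison share 2 libraries, which limits precision. Alternatives were DESeq2 1.42.0, RLE factors, no block, other thinning and cell filters, and leaving out each library; the comparison by Il13 and the removal of shared barcodes were added after seeing the data. Hashtag libraries were not used. The test was tested on simulated data without a difference between libraries. Of 100 genes changed by a log2 of 0.5, 54 were recovered by Itgae and 28 by Ahr. Of 100 changed by a log2 of 1, 78 and 55 were recovered, so a gene that was not called may still differ. False calls were 7 of 10928 unchanged genes by Itgae and 1 of 11106 by Ahr.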

Additional observations from a re-analysis of the deposited data

Results flagged for a closer look

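Outside the cells that were compared, members were also counted in cells left out for a mitochondrial share above 10%, of which there were 604 in replicate 1 and 1764 in replicate 2. These held 51 and 186 Ahr UMIs (42.8 and 56.0 CPM), 44 and 175 Tiparp UMIs (36.9 and 52.7 CPM) and 6 and 4 Ahrr UMIs (5.03 and 1.20 CPM). The Ahr and Tiparp levels were above those of the compared cells in both libraries, but for Tiparp in replicate 1 the gap was small (36.9 against 33.7 CPM, on 44 UMIs). Unlike the compared cells, the cells left out were not required to have a CD3 UMI, and the difference was not tested. Tiparp also had 4 and 6 UMIs in the 48 and 41 kept cells without a CD3 UMI.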

How the results depend on the processing

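The calls of Ahr and Ahrr by Itgae and Cd8a, and of Ahrr by Ccr9, held under the 13 other settings run for each; the Ahrr difference by Itgae was 2.66 without thinning. Without the replicate block, calls were lost for Tiparp by Itgae (0.26, adjusted p = 0.123) and Ahr by Ccr9 (0.43, adjusted p = 0.0932), and 19, 136 and 0 genes were called by Ahr, Ahrr and Tiparp against 203, 339 and 11 with it. With DESeq2 the values were 0.26 for Tiparp by Itgae, 0.43 for Ahr by Ccr9 and 0.78 for Ahr by Il13, none called, and 83, 125 and 32 genes were called by Ahr, Ahrr and Tiparp; higher calls by Ahrr were 29.6% of the total with DESeq2 and 18.9% otherwise. Thinned to 1000 UMIs, the values were 0.25 for Tiparp by Itgae, 0.38 for Ahr by Ccr9, -0.65 for Ahr by Il10 and 0.51 for Ahr by Il13, none called, with reversals for Ahr by Il22 (-0.073) and Tiparp by Il10 (-0.095), and 54 and 17 genes by Ahr and Tiparp. Without thinning, detection moved to 10.5% for Ahr, 2.28% for Ahrr and 11.96% for Tiparp, Tiparp was called by Ccr9 (0.22) and Il13 (0.33) and turned by Il10 (-0.080), and 2048, 2523 and 2022 genes were called, of which 138 and 1 were among the 203 and 11. A second thinning gave 0.37 for Tiparp by Ccr9, now called, 0.44 for Ahr by Il13, not called, and 128 and 122 genes by Ahrr and Tiparp. With no low-count filter 378 and 136 genes were called by Ahr and Tiparp. Without clusters of mostly 1 library, Ahr by Ccr9 was 0.47 (adjusted p = 0.0584), and 361 and 136 genes were called by Ahr and Tiparp. With a mitochondrial limit of 5%, Ahr by Il13 was 0.52, not called, and Tiparp had 69 genes. Tiparp had 27 with all kept cells, 64 without clusters of other cell types, 36 without the cells with most UMIs and 37 without shared barcodes; Ahrr had 158 without the cells with most UMIs.

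Within single libraries, Ahr by Itgae ran from 0.78 to 0.81, Tiparp by Ccr9 from 0.074 to 0.14, Tiparp by Il10 from 0.14 to 0.27 and Tiparp by Il13 from 0.24 to 0.29. The highest cluster reached 60.3 CPM of Ahr at resolution 1.5 (70.2 at 1), and 52.0 and 65.3 CPM of Tiparp at 0.6 and 1.5 (56.3 at 1). Of 77 called results for named genes, 23 were kept under every alternative run, 54 lost the call in at least 1, and 9 of the 77 reversed in at least 1. Reversed without thinning were, by Ahr, Il13 (-0.18), Il7r (-0.17) and Lta (-0.0063), and by Tiparp, Il10 (-0.29), Il13 (-0.049), Dusp1 (-0.058), Nfkbia (-0.011) and Crip1 (-0.0050). Reversed at 1000 UMIs were Klf4 by Ahr (-0.18), Isg15 (-0.055) and S100a8 (0.24) by Ahrr, and Cd8a (-0.024) and Il10 (-0.062) by Tiparp; Cd8a, Il10 and Il13 by Tiparp had not been called. The cause of these changes was not tested. Depth limits detection: most cells with a member held 1 UMI of it, so undetected classes hold cells that express it.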

Other observations

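Exoc3, a subunit of the exocyst that tethers secretory vesicles, was among the genes most like Ahrr over clusters (r = 0.96) and is also its neighbour. Exoc3 lies at chr13:74169488-74208732 on the same strand as Ahrr, with 2385 bases between the gene models. It was highest in cluster 10 (134 and 122 CPM), where Ahrr was highest, and lowest in cluster 13 (60.8 and 54.8 CPM). In the comparison of cells with and without an Ahrr UMI its log2 difference was -0.00 (adjusted p = 0.999). The strand and the assignment of reads between neighbouring genes were not tested.

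Neurl3, a ubiquitin ligase, was among the 5 genes most like both Ahr and Tiparp over clusters. It was highest in cluster 13 (186 and 204 CPM) and lowest in cluster 2 (9.002 and 12.6 CPM). It was called higher in Ahr-detected cells (0.54 ± 0.11, adjusted p = 0.00919) and was not called by Tiparp (0.47, adjusted p = 0.244). Neurl3 was picked over clusters of the same cells, so its call is not independent of that choice.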
